A study of Danio rerio with 16 samples.

Results

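Actinodins are the structural proteins of the actinotrichia, the unmineralised fibrils that stiffen the fin fold of a fish before bony rays form. The 4 zebrafish actinodin genes and1, and2, and3 and and4 were taken by their symbol in the deposited expression tables and joined to the read counts by gene ID. They are 4 of the 28364 genes listed for every library. They were selected on their levels in these libraries, high in the larva and the pool and low in the adult, so those levels are given as a description, without a test.

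RNA was sequenced from 5 groups of wild-type zebrafish of the AB strain, with no treatment or transgene named. The groups were the adult head, the adult tail, larvae at 5 days, a pool of whole embryos titled 16-36 hpf (hours post fertilization) and whole embryos at 24 hpf. The pool's stage label gives 16 somites to 24 hpf instead, so its age range is uncertain. The adult head, adult tail, larva and pool are 1 library each and have no replicate, and the 24 hpf group has 3 biological samples, so 7 libraries were analysed. The files gave 8017208 reads on genes for the head, 8376307 for the tail, 8532429 for the larva, 11045403 for the pool and between 40899061 and 44962951 for the 24 hpf samples. The 24 hpf tables list 28491 gene IDs, against 32313 in each of the other tables, so the gene models, the depth and the stage differ together between those 2 sets of files and cannot be told apart. The head, tail, larva and pool share one set of gene models, and comparisons among them do not carry that difference.

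Actinotrichia are bundles of collagen fibrils in which actinodins are a major non-collagen component. Epidermal cells of the fold lay them down first, and mesenchymal cells that move into the fold add to them later. In zebrafish, and1 and and2 are required together for actinotrichia to form and for the fold to keep its shape. In adult fins actinotrichia remain at the tips of the rays, and actinodin genes are switched on again during fin regeneration. The family is missing from the genomes of land vertebrates.

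The 4 genes lie on 4 different chromosomes of the Zv9 assembly. and1 (ENSDARG00000088514) spans 2838 bases at chr24:27076743-27079580, and the 24 hpf tables call the same gene ID LOC794315. and2 (ENSDARG00000079302) spans 4450 bases at chr2:31480048-31484497. The model of and3 (ENSDARG00000056873) differs between the files, with 6204 bases at chr10:23048765-23054968 in the tables of the adult, larval and pool libraries and 5881 bases at chr10:23048950-23054830 in the 24 hpf tables. The and4 model (ENSDARG00000090729) is the shortest of the 4, with 322 bases at chr14:226568-226889. All 4 passed the filter on low counts, and each is a protein-coding gene in RefSeq.

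All 4 actinodin genes were highest in the 5-day larva, next in the pool, lower at 24 hpf and lowest in the adult head and tail. The order was the same for each gene as far as its counts allow. Levels within a gene are given as normalised read counts, as CPM, the reads on a gene scaled to the library's total by the TMM method. Because these are bulk samples, fewer expressing cells and less RNA per cell cannot be told apart. The adult libraries are body parts and the embryo samples are whole, so age and body part cannot be told apart between them either.

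For and1 the level was 5.87 CPM in the adult head, 1.46 CPM in the adult tail, 275 CPM in the larva and 177 CPM in the pool, against 23.4, 6.46 and 20.8 CPM in the 24 hpf samples. The larva and the pool lay far above every 24 hpf sample, and both adult libraries lay below all of them. The 4 genes were selected on these levels, so such separation from 24 hpf is a description for each. By another measure, the edgeR test given below, many of all tested genes also differed from 24 hpf. The shares were 62.6% in the head, 53.1% in the tail, 50.4% in the larva and 12.6% in the pool. That test is not the same as lying outside the range of the 24 hpf samples, for which the share of all genes is not given here. Relative to the 24 hpf mean of 16.9 ± 9.14 CPM (SD, n = 3), and1 was 16.25 times as high in the larva (log2 ratio 4.02) and 10.5 times as high in the pool (3.39). The adult head was 2.88-fold lower (-1.53), yet only slightly below the lowest 24 hpf sample, of which it reached 0.909. The adult tail was 11.6-fold lower than the 24 hpf mean (-3.53).

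The second gene, and2, ranged from no read in the adult head to 4434 reads in the larva. Its level was 0 CPM in the adult head, 0.112 CPM in the adult tail (1 read), 449 CPM in the larva and 115 CPM in the pool, against 7.08, 2.32 and 3.33 CPM at 24 hpf. No read fell on it in the head, where 3 counts would be 0.314 CPM, so the 2 adult libraries cannot be ordered. Set against the 24 hpf mean of 4.24 ± 2.51 CPM (SD, n = 3), and2 was 106 times as high in the larva (log2 ratio 6.73) and 27.1 times as high in the pool (4.76). In the head it was at least 13.5-fold lower than the 24 hpf mean, taking 3 counts in that library as the limit. The tail's 1 read gave a 24 hpf to tail ratio of 37.7, with a 95% counting interval of 6.73 to 1492.

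and3 followed the same course at lower read counts. It stood at 0.105 CPM in the adult head (1 read), 0 CPM in the adult tail, 121 CPM in the larva and 31.03 CPM in the pool, against 1.48, 0.138 and 1.299 CPM at 24 hpf. The larva was 124 times the 24 hpf mean of 0.973 ± 0.729 CPM (SD, n = 3; log2 ratio 6.96), and the pool was 31.9 times that mean (4.99). In the lowest 24 hpf sample and3 had 5 reads, and neither adult library was deep enough to be ordered against that sample. The 24 hpf to head ratio was 9.28 with a 95% counting interval of 1.62 to 368, and the tail was at least 2.89-fold lower than the 24 hpf mean. That interval, like those of and1, and2 and and4 against 24 hpf, sums the reads of the 3 samples. It leaves out the spread between them. The larval and pool ratios of and3 also carry the change of gene model.

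Over the 24 hpf mean, and4 had the smallest larval and pool ratios of the 4 genes. It measured 0.105 CPM in the adult head (1 read), 0.337 CPM in the adult tail (3 reads), 20.6 CPM in the larva and 12.01 CPM in the pool, against 2.24, 0.773 and 1.98 CPM at 24 hpf. Both early single libraries were again above all 24 hpf samples, and both adult values were below them. With 1 and 3 adult reads, the order against the lowest 24 hpf sample was not tested. The larva was 12.4 times the 24 hpf mean of 1.66 ± 0.782 CPM (SD, n = 3; log2 ratio 3.63), and the pool was 7.22 times that mean (2.85). The 24 hpf to head ratio was 15.9 (95% counting interval 2.80 to 628) and the 24 hpf to tail ratio was 4.93 (1.65 to 24.1).

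The larva and the pool share gene models and a similar depth, and there the genes split into 2 pairs by how far they differed. The larva to pool ratio was 3.90 for and2 (449 against 115 CPM, 95% counting interval 3.66 to 4.15) and 3.90 for and3 (121 against 31.03 CPM, 3.46 to 4.41). It was 1.55 for and1 (275 against 177 CPM, 1.46 to 1.64) and 1.71 for and4 (20.6 against 12.01 CPM, 1.37 to 2.15). The intervals of and2 and and3 do not overlap those of and1 and and4. They cover counting error in 1 library each and no variation between batches of fish.

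The adult libraries were also set against the larva, whose tables use the same gene models. and1 was 46.8-fold lower in the adult head than in the larva (95% counting interval 35.9 to 62.1) and 188-fold lower in the adult tail (109.7 to 353). and2 was at least 1428-fold lower in the head, and and3 at least 359-fold lower in the tail, with 3 counts as the limit in each library. The larva to tail ratio of and2, from 1 tail read, was 3993 (716 to 157740), and that of and4, from 3 tail reads, was 60.9 (20.6 to 298).

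Of the 4 genes, and1 was the one with more than 3 reads in an adult library, with 56 head reads and 13 tail reads. Its head to tail ratio was 4.02, with a 95% counting interval of 2.17 to 8.004. The same ratio for and4 rested on 1 head read and 3 tail reads, and its interval of 0.00592 to 3.87 includes equal levels. Summed over the 4 genes, the level was 6.08 CPM in the head, 1.91 CPM in the tail, 865 CPM in the larva and 335 CPM in the pool, against 34.2, 9.69 and 27.4 CPM at 24 hpf. Per length, as a share of the summed FPKM of the 4 genes, a value scaled to gene length, and1 made up 76.5% in the head and 27.7% in the tail, where the 3 reads of the short and4 model made up 70.1%.

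What each adult library held was checked against marker genes. Retina markers (5 of 5 found) summed to 5568 CPM in the head and 3.37 CPM in the tail, with none at 0 in either. Oocyte markers (4 of 5 found) summed to 1680 CPM in the tail, among them zp3b at 958 CPM and zar1 at 531 CPM, against 1.62 to 4.39 CPM in every other library. Epidermis markers (4 of 6 found) summed to 19321 CPM in the head and 4426 CPM in the tail, against 22505 to 27805 CPM at 24 hpf. Their sum was 16688.5 CPM in the larva, below that of the head, and 28010.6 CPM in the pool. In the head that sum was mostly krt5, at 15134 CPM against a 24 hpf mean of 4716 CPM, while krt4 was at 4062 CPM against 17822 CPM, cyt1l at 0.524 CPM against 3224 CPM and cldne at 124 CPM against 214 CPM. Liver markers (3 of 4 found, none at 0) summed to 5826 CPM in the head and 17030 CPM in the tail. The other libraries had 989 to 2700.2 CPM. In both adult libraries that sum was mostly the yolk protein gene vtg2. It was at 4695 CPM in the head and 14052 CPM in the tail, against at most 0.709 CPM elsewhere. In the head tfa was lower than at 24 hpf, at 931 CPM against a mean of 2162 CPM, and in the tail it was at 2452 CPM. The third, fabp10a, was at 201 CPM in the head and 526 CPM in the tail, against 108 CPM in the larva. The part of the oocyte and liver transcripts in the low adult actinodin levels was not tested.

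Levels of different genes were compared per length, as the FPKM values the authors deposited (fragments scaled to the length of the gene model and to the library's total). In the larva and2 was the highest at 193 FPKM, followed by and1 at 130.1, and3 at 88.7 and and4 at 59.5 FPKM. Among the 28364 genes these were ranks 275, 399, 567 and 844, all within the top 2.98%. In the pool the order was and1 at 67.9, and2 at 44.0, and4 at 30.3 and and3 at 21.9 FPKM, and the ranks ran from 763 for and1 to 2693 for and3.

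The balance between and1 and and2, the pair required together for actinotrichia, lay on opposite sides of 1 in the larva and at 24 hpf. The FPKM ratio of and1 to and2 was 0.675 in the larva (95% counting interval 0.643 to 0.708) and 1.55 in the pool (1.44 to 1.66), against 3.34, 2.50 and 6.13 in the 24 hpf samples. All 24 hpf samples had more and1 than and2 per length, with a mean ratio of 3.99 ± 1.90 (SD, n = 3). The larva was the one library in which and2 exceeded and1. In the adult tail the ratio was 12.9 but rested on 1 and2 read, with an interval of 1.94 to 548. In the adult head and2 was at 0 beside 2.62 FPKM of and1. The intervals of and1 and and2 are the same in all tables, though the exons within them were not compared. The reads behind 1 FPKM were alike across the libraries with reads. They were 2.48 to 2.86 CPM for and1 and 2.39 to 2.83 CPM for and2.

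**Figure D1:**
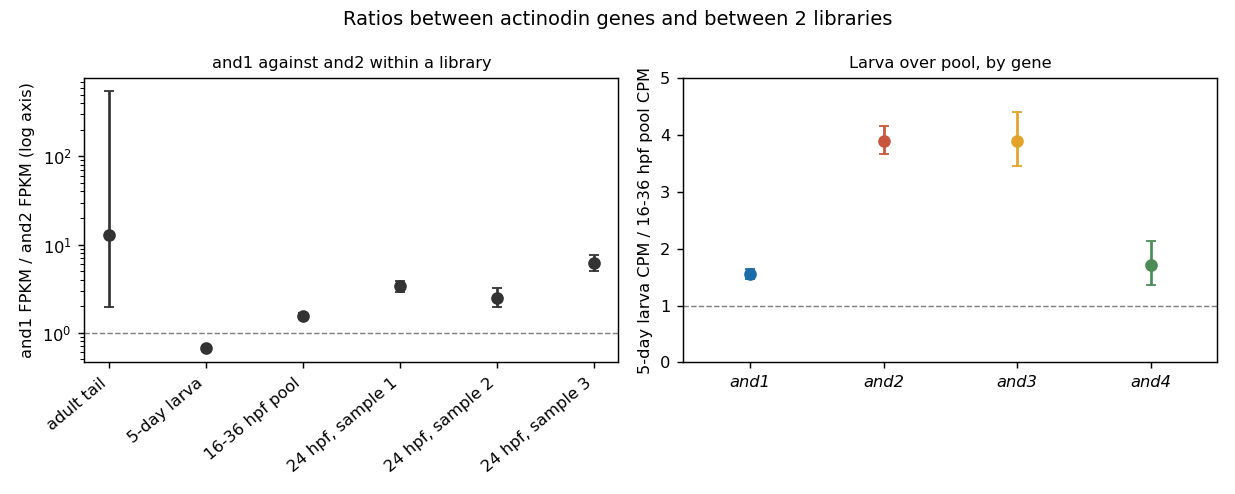
Left, FPKM of and1 divided by FPKM of and2 (log axis) in the adult tail, the 5-day larva, the 16-36 hpf pool and each 24 hpf sample; right, CPM in the larva divided by CPM in the pool for each gene (linear axis). Points are ratios, bars are 95% counting intervals and dashed lines mark a ratio of 1: on the left the larva alone falls below the line, at 0.675, and on the right and2 and and3 stand at 3.90, above and1 and and4.

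For and3 and and4 the reads behind 1 FPKM differed between libraries, so their per-length values are not directly comparable across them. The FPKM shares and orders above, and the FPKM ratios of these genes below, carry that limit. One FPKM of and3 corresponded to 1.01 to 1.196 CPM before scaling in the 24 hpf samples and to 1.43 to 1.72 CPM in the head, larva and pool. One FPKM of and4 corresponded to 0.178 CPM in the head (1 read), 0.261 CPM in the tail (3 reads), 0.406 CPM in the larva and 0.400 CPM in the pool, against 0.186 to 0.257 CPM at 24 hpf. Within the larva and the pool, the and2 to and3 ratio was alike, at 2.18 (95% counting interval 2.04 to 2.32) and 2.00 (1.78 to 2.27).

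The 3 biological samples at 24 hpf differed from each other in the actinodin genes more than most genes of like level did. Sample 2 had the lowest value of all 4 genes, and the highest sample exceeded it by 3.63 times for and1, 3.05 times for and2, 10.7 times for and3 and 2.90 times for and4. The coefficient of variation was 54.1% for and1, 59.1% for and2, 74.9% for and3 and 47.0% for and4. Tested genes with a mean within 2-fold of each had a median of 17.1%, 22.01%, 33.2% and 28.3% in the same order. Of those genes, 1.84% varied at least as much as and1, 4.58% as much as and2, 6.71% as much as and3 and 19.9% as much as and4.

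Sample 2 was the lowest of the 3 in 38.1% of the tested genes, against 29.3% for sample 1 and 32.5% for sample 3. Fast muscle markers (5 of 6 found, none at 0) were all lowest there and summed to 6620, 3174 and 7545 CPM in samples 1, 2 and 3. Presomitic mesoderm markers (4 of 4 found, none at 0) summed to 87.5, 140.4 and 103 CPM, and 3 of the 4 were highest in sample 2, with msgn1 at 9.65, 32.4 and 18.5 CPM. The fourth, ntla, was lowest in sample 2, at 51.5, 47.4 and 52.7 CPM. Low muscle markers and a high presomitic sum, with ntla going the other way, went with low actinodin levels in that sample. Their part in the spread was not tested. The 24 hpf means of and1 to and4 depend on that sample: without it, the larva to 24 hpf log2 ratio was 3.63 for and1, 6.43 for and2, 6.44 for and3 and 3.29 for and4. Without sample 1, the log2 ratio of and2 to the 24 hpf mean was -4.65 in the tail, 7.31 in the larva and 5.35 in the pool. The larval log2 ratio stayed positive for each gene whichever 24 hpf sample was left out. That sign could not change, because the larva lay above every 24 hpf sample for all 4 genes.

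The pattern of each gene over the 5 groups was compared with that of 17197 genes by the root mean square difference of centred log2(CPM + 0.5), where 0 means the same shape. Among the actinodins themselves, and1 and and3 were nearest at 0.883, and2 and and3 followed at 0.911, and and2 and and4 were farthest apart at 1.92. The gene nearest to and1 was crygmxl2, of the lens crystallin family, at 0.431, then epyc, which encodes the small matrix proteoglycan epiphycan, at 0.586. si:dkeyp-113d7.4, COL19A1 and zgc:162402 completed its 5 nearest. Like and1, epyc was at 193 CPM in the larva and 62.1 CPM in the pool, against 27.9, 11.5 and 19.8 CPM at 24 hpf, and was lowest in sample 2.

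COL19A1, named for a collagen chain, was the nearest gene to and3 at 0.439 and also among the 5 nearest to and1 and and2. It stood at 0.314 CPM in the head, 0.225 CPM in the tail, 119 CPM in the larva and 67.0 CPM in the pool, against 3.78, 1.16 and 2.99 CPM at 24 hpf. The others nearest to and3 were crygm2d12, crygm2d8, crygm2d7 and crygm2d13, lens crystallin genes of chromosome 9. For and2 they were crygm2d13 at 0.597, CABZ01074130.1, crygm2d8 and and3 itself. The crygm2d genes are close copies of each other, so the reads counted for each one are uncertain.

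The 5 genes nearest to and4 were tnnt2d, a troponin T gene, at 0.353, myoz1b, which encodes a muscle Z-disc protein, at 0.554, zgc:110053, CR925772.2 and bcl11ab, a zinc-finger transcription factor gene. No gene was shared between that set and the sets of and1, and2 and and3. With 5 groups the likeness rests on few points. Among the genes nearest to the actinodins, only COL19A1, CABZ01074130.1 and CR925772.2 have the same interval in all tables. The 24 hpf points of the others can carry a change of gene model. By Pearson correlation in place of the difference, 0, 2, 1 and 1 of the 5 nearest genes of and1, and2, and3 and and4 remained.

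**Figure D2:**
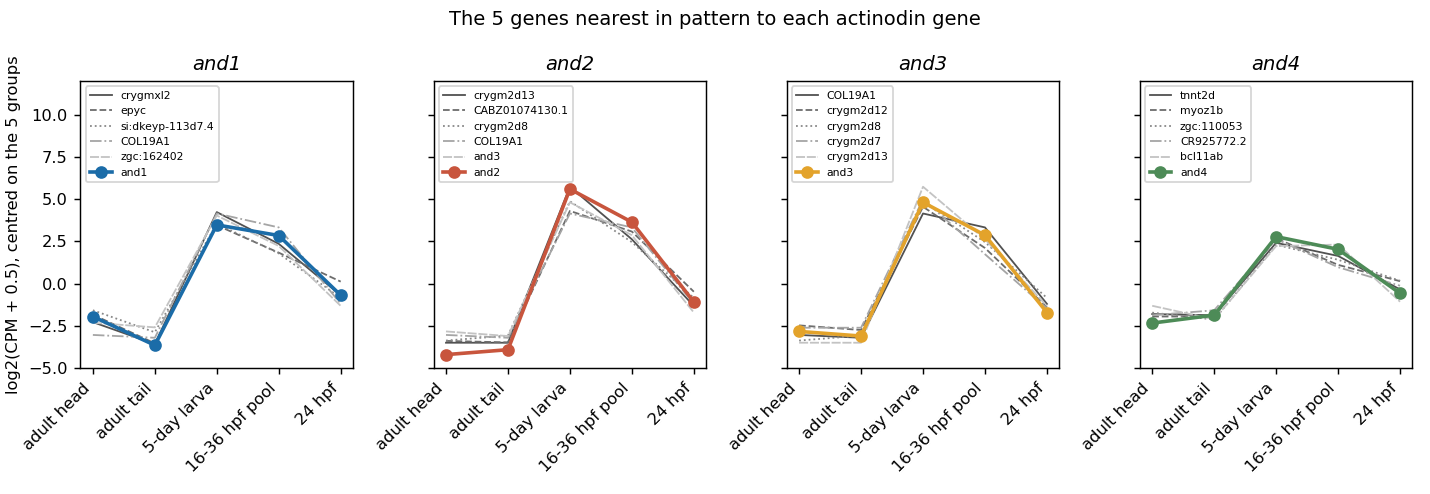
log2(CPM + 0.5) centred on the mean of the 5 groups for each actinodin gene (coloured, with points) and the 5 genes of most like pattern (grey lines), in the adult head, the adult tail, the 5-day larva, the 16-36 hpf pool and at 24 hpf (mean of 3 samples). All lines peak in the larva or the pool, and the lines nearest to and4 span a smaller range than those nearest to and2 and and3.

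No annotated gene overlaps an actinodin gene in these models. The gene following and3, AP4M1, starts 43 bases past its end and did not share its course, with 3.15 CPM in the head, 12.1 CPM in the tail, 3.65 CPM in the larva and 7.19 CPM in the pool, against 8.62, 9.05 and 8.95 CPM at 24 hpf. MYEOV2, which lies 1534 bases from and1, was at 19.0 CPM in the head, 10.35 CPM in the tail, 18.4 CPM in the larva and 14.5 CPM in the pool, against 34.3, 43.5 and 43.6 CPM at 24 hpf, and so was below 24 hpf in all 4 single libraries. adipoql2, 1288 bases on the other side of and1, was at 4.51 CPM in the head and 3.71 CPM in the tail. It was at 0.304 CPM in the larva and 0.728 CPM in the pool, against 0.420, 0.193 and 0.226 CPM at 24 hpf. Near and2, RALYL (2 of 2) was at 1.72 CPM in the larva and 0.455 CPM in the pool, against 0.560, 0.304 and 0.141 CPM at 24 hpf, and FAM134B reached 8.07 CPM in the head. Near and4, hs3st1 was at 5.45 CPM in the head and 30.8 CPM in the tail. It was at 1.52 CPM in the larva and 3.09 CPM in the pool, against 2.55, 1.93 and 3.30 CPM at 24 hpf. STAG3L4, on the other side of and4, was at 11.4 CPM in the tail and 0.101 CPM in the larva. Of the 8 neighbours, RALYL (2 of 2) was the one whose highest level was in the larva, and it had 17 reads there.

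Other genes of fin folds and fins were counted from a list of 176 symbols in 5 roles, of which 149 genes could be tested with edgeR's quasi-likelihood test over all 21128 genes (Benjamini-Hochberg adjusted p under 0.05). The spread in that test comes from the 3 samples at 24 hpf alone. In the larva, where the actinodins peaked, 23 list genes rose (15.4%) and 38 fell (25.5%) relative to 24 hpf, 40.9% in either direction. Of all genes, 26.5% were called higher and 23.9% lower (50.4% in either direction). The share of list genes that fell was thus near that of all genes. The list's median log2 change was -0.26, against -0.02 for all genes. With library totals in place of TMM, which moves the median of all genes by 0.46, 35 list genes rose and 20 fell, so the balance of directions depends on the scaling.

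Matrix genes, the role closest to the actinodins, had 12 of 34 higher (35.3%) and 6 lower (17.6%) in the larva. Of all genes, 26.5% were called higher and 23.9% lower there. As for the list, the balance of directions in a role can depend on the scaling. The collagen VI chain gene col6a3 was at 191 CPM, against 9.14 ± 1.70 CPM at 24 hpf (SD, n = 3; log2 change 4.38 ± 0.27 SE, edgeR adjusted p = 9.10e-05), and col6a1 and col6a2 rose by 3.49 and 3.66. col2a1a, a collagen II gene, was at 2918 CPM in the larva, against 2084 ± 460 CPM (SD, n = 3). It did not pass the test (0.49 ± 0.33 SE, edgeR adjusted p = 0.249). col1a1a, a collagen I gene, was at 3742 CPM in the larva, against 1715 ± 630 CPM (SD, n = 3). It was called higher (1.13 ± 0.39 SE, edgeR adjusted p = 0.0484). Among 25 genes of epidermal adhesion and basement membrane 6 rose (24%) and 5 fell (20%), near the shares of all genes. The largest change was in col17a1a, a collagen of the anchoring hemidesmosome (264 CPM in the larva, against 1.11 ± 0.402 CPM at 24 hpf, SD, n = 3). Of 26 signalling genes 2 rose (7.69%) and 4 fell (15.4%), and of 50 transcription factor genes 0 rose and 22 fell (44%). sp8b, a zinc-finger gene of the fold's apical ridge, fell to 12.6 CPM in the larva, against 150.5 ± 30.4 CPM at 24 hpf (SD, n = 3), while all 4 actinodins were at their highest. Because these are bulk samples, the levels of sp8b and the other list genes cannot be assigned to the fold. Of 14 fin ray bone genes 3 rose (21.4%) and 1 fell (7.14%). Among them col10a1, the collagen X gene, was at 186 CPM in the larva, against 0.0468 ± 0.0428 CPM at 24 hpf (SD, n = 3). The bone gene that fell was phospho1, at 8.71 CPM in the larva, against 37.4 ± 12.2 CPM at 24 hpf (SD, n = 3).

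In the pool, 12 list genes rose (8.05%) and 1 fell (0.671%) relative to 24 hpf, 8.72% in either direction. Of all genes, 6.56% were called higher and 6.05% lower (12.6% in either direction). The share of list genes that rose was thus near that of all genes. The list's median was 0.09, against -0.08 for all genes. The count rests on single 24 hpf samples: 6 rose and 1 fell without sample 1, 3 rose and 0 fell without sample 2, and 14 rose and 7 fell without sample 3. The genes that rose were col6a1, col6a2, col6a3, col12a1 and hapln1a of the matrix, col17a1a, col17a1b, itgb4, itgb1a and frem2a of adhesion, fgfr1a and col10a1. col17a1a was at 41.0 CPM in the pool, against 1.11 ± 0.402 CPM at 24 hpf (SD, n = 3; log2 change 5.20 ± 0.35 SE, edgeR adjusted p = 0.00175). plod3, a collagen-modifying enzyme gene, fell by 2.14. No transcription factor gene of 50 passed the test in edgeR.

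In the adult head 22 list genes rose (14.8%) and 84 fell (56.4%). Of all genes, 32.2% were called higher and 30.4% lower (62.6% in either direction). The list's median was -1.32, against -0.01 for all genes. With library totals in place of TMM, 29 rose and 64 fell in the head. In the adult tail 18 rose (12.1%) and 104 fell (69.8%), beside 25.6% of all genes called higher and 27.5% called lower (53.1% in either direction). The list's median there was -2.61 (-2.60 with the 3 genes without a read set at their bound), against -0.11 for all genes. The part of the oocyte markers in the tail, and of the liver markers in both adult libraries, in these counts was not tested. Of the transcription factor genes, 38 of 50 fell in the head and 45 of 50 in the tail. hoxc13a, a posterior Hox gene, had no read in the head and was at least 64.9-fold lower than its 24 hpf mean of 20.4 ± 2.11 CPM (SD, n = 3). All 7 transcription factor genes without a read in the head were posterior Hox genes. The head is a body part and the 24 hpf samples are whole embryos, so age and body part cannot be told apart in these counts. Of the fin ray bone genes, 6 of 14 rose and 3 fell in the head, and 8 rose and 4 fell in the tail. Among those that fell was phospho1, at 2.73 CPM in the head and 1.69 CPM in the tail, against 37.4 CPM at 24 hpf. sp7 fell in the head, at 4.61 CPM against 11.7 CPM. col10a1 was at 198 CPM in the head and 24.4 CPM in the tail, against 0.0468 CPM at 24 hpf. The matrix gene col2a1a fell to 39.4 CPM in the head and 3.37 CPM in the tail, against 2084 CPM at 24 hpf. col1a1a was at 1386 CPM in the head and 417 CPM in the tail, against 1715 CPM at 24 hpf. It did not pass the test in the head (edgeR adjusted p = 0.548).

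**Figure D3:**
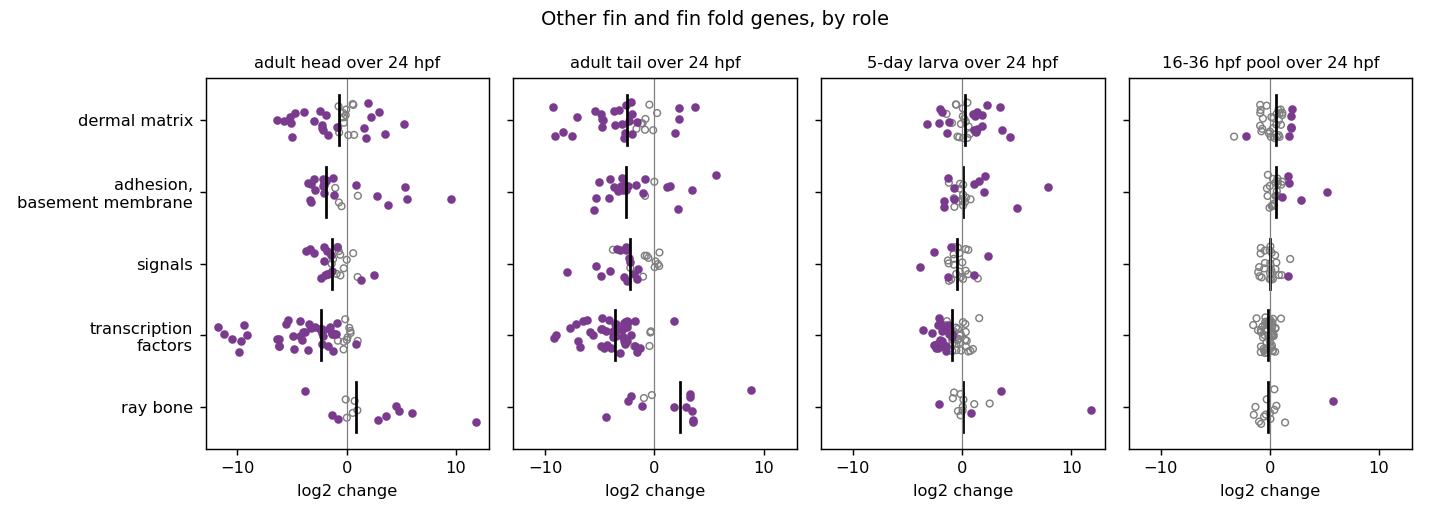
Fitted log2 change over 24 hpf of the 149 tested list genes by role, for the adult head, the adult tail, the 5-day larva and the 16-36 hpf pool; filled points passed an adjusted p of 0.05 in edgeR, open points did not, black bars are medians, and fitted values of genes with no read in a library depend on edgeR's prior count. Transcription factor genes lie mostly left of 0 in both adult libraries, where 38 and 45 of 50 fell, and bone genes mostly right of 0 in the tail.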

How the data were processed

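Libraries were made from TRIzol-extracted total RNA with a TruSeq RNA kit, per the labels' protocols. The submitters' processing notes name CASAVA 1.4, TopHat 1.4.1, Bowtie 0.12.7, HTSeq 0.5.3p3, Cufflinks 1.3.0 and the Zv9 assembly. The authors deposited read counts per gene and FPKM values for 7 libraries, and the 9 sample records without a file are technical runs or read ends of the 24 hpf samples and were not used. No source used here says if the technical runs were pooled.

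The 28364 shared gene IDs were filtered (filterByExpr, minimum count 10), scaled by TMM and fitted with edgeR 4.0.16 in R 4.3.3. The model had 5 groups and 2 residual degrees of freedom. It was also run on simulated counts drawn with the spread of the main fit, whose outcome is not reported here. The p-values measure the spread between the 3 samples at 24 hpf only. Ratios between libraries have exact binomial (Clopper-Pearson) 95% intervals, which cover counting error only. For ratios to 24 hpf the value uses the mean CPM of the 3 samples. Its interval uses their summed reads and leaves out the spread between them. A level of 0 was bounded at 3 counts per library. DESeq2 1.42.0, other scalings and filters, and omission of libraries were tried.

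The members and gene lists were chosen with earlier results of these data known. Named list genes come from the 3 largest called changes per role and comparison at 5 CPM or more and the 2 highest genes at 24 hpf; the pool's other called genes were named after their values were seen. Genes like in pattern are the 5 nearest per actinodin gene among those reaching 5 CPM in a group, and neighbours are the adjacent annotated genes.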

Additional observations from a re-analysis of the deposited data

How the results depend on the processing

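The actinodin log2 ratios to 24 hpf were recomputed under other scalings, other 24 hpf samples or the deposited FPKM values. Of 94, 93 kept their direction and moved by less than 1 SD of log2 CPM at 24 hpf. The other was and4 in the adult head, at -3.13 by FPKM and -3.99 by counts. That SD is wide, at 1.03 for and1, 0.82 for and2, 1.92 for and3 and 0.84 for and4. Leaving out 1 of 3 samples can hardly move a mean that far, so those recomputations could hardly fail. No FPKM ratio could be taken for and2 in the head or and3 in the tail, both at 0. Restricting the tests to 9957 genes whose interval is the same in all tables left 6095 genes called in the head, 4982 in the tail, 4880 in the larva and 1025 in the pool. Of 47 list genes 37, 44, 23 and 3 were called in the same order. The main fit called 36, 43, 19 and 4 of those 47. Fewer genes were tested in the restricted fit, and the cause of the differences was not tested. In the pool, leaving out single 24 hpf samples gave 209 to 4765 called genes (548 without sample 1, 209 without sample 2, 4765 without sample 3) and 3 to 21 list genes; the cause was not tested. With library totals as the scale, 8365 genes were higher and 4516 lower in the head (6806 and 6427 with TMM), 6911 and 4498 in the tail (5415 and 5813), 7063 and 3174 in the larva (5601 and 5052) and 1984 and 748 in the pool (1386 and 1279), and list genes in the head were 29 higher and 64 lower. That scale moves the median log2 change of all genes by 0.55, 0.41, 0.46 and 0.24 in the head, tail, larva and pool. DESeq2 called 93, 114, 51 and 14 list genes in the head, tail, larva and pool. Leaving out the adult tail library, chosen after seeing the data, changed no list count by more than 1 gene. Of the 5 genes nearest to each actinodin gene, 0 to 2 were retained by correlation and 2 to 5 under the other measures. No paired analysis was possible because 4 of the 5 groups are 1 library, so the groups compared share fewer than 2 replicate numbers. Adult levels of and2, and3 and and4 rest on 0 to 3 reads, so depth limits what can be said of them.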
